A study of Mus musculus with 29 samples.

Results

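The gaining windows are the stretches of the mouse genome whose methylation was higher after ovalbumin (OVA) challenge in both kinds of offspring. They were chosen by their measured values, as the windows on chromosomes 1 to 19 with a percentage in all 29 libraries where the mean of Sham-OVA exceeded the mean of Sham by at least 10 points and the mean of PM-OVA exceeded that of PM by at least 10 points. There were 590 such windows, named for 420 genes, among 250325 complete autosomal windows (0.236%). A window is a run of 100 CpG cytosines over both strands, or 50 CpG dinucleotides, that touches a gene. The unit is the percentage of methylated CpG calls in it (%DNAm), and a point is 1 percentage point.

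The libraries came from homogenised lung of 13-week-old BALB/c mice, 1 library per mouse. All mice are labelled female, which is in doubt for Sham replicate 1, as described below. Sham (n = 7) and Sham-OVA (n = 7) were offspring of dams given saline by the nose, and PM (n = 7) and PM-OVA (n = 8) were offspring of dams given particulate matter (PM2.5) before mating, through gestation and until weaning. Sham-OVA and PM-OVA offspring were sensitised to OVA with alum and then breathed nebulised OVA, which gives allergic airway disease (AAD), whereas Sham and PM offspring breathed nebulised saline and are labelled as PBS-treated. The Sham arm below means Sham-OVA against Sham, and the PM arm means PM-OVA against PM. The labels do not give the litter of a mouse, so siblings may be counted as separate replicates. Since whole tissue was measured, a change in the mix of cells and a change of methylation within cells cannot be told apart in any value below.

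The table gives percentages without read counts, so the depth behind a value is unknown and no counting error can be given. Each library had a value in 258952 to 260135 of 260686 windows. Sham replicate 1 stood apart on the Y chromosome, with a value in 1224 of 1230 windows against 29 to 46 in the other libraries. Its label as female is therefore in doubt, and the reason was not tested. Without it the rule chose 571 windows, of which 567 were among the 590.

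In mammalian DNA most CpGs are methylated, and the CpG-dense starts of many genes are kept free of methylation. Between these states lie partly methylated stretches, in which some DNA molecules carry the mark and others do not, either because cell types differ or because the cells of a type do. Regulatory elements and the bodies of developmental genes are known for such intermediate levels. A window can therefore gain by many points only where it starts below full methylation.

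The sequences below are those of the 6 leading genes for which a stretch free of untranslated sequence was printed. They are shown because they hold the DNA in which the largest gains were measured. Each is the 150 bases with most CpG dinucleotides inside the gaining window, read on the plus strand of GRCm38, with each CpG in capitals. They lie at chr10:127091654-127091803 in Agap2 (17 CpGs, coding), chr8:105693834-105693983 in Carmil2 (22 CpGs, no exon), chr6:52202650-52202799 in Gm28308 (8 CpGs, coding sequence of the overlapping Hoxa5), chr11:103193014-103193163 in Fmnl1 (15 CpGs, coding), chr5:107721537-107721686 in Gfi1 (25 CpGs, coding) and chr8:88627573-88627722 in Snx20 (28 CpGs, coding).
Agap2: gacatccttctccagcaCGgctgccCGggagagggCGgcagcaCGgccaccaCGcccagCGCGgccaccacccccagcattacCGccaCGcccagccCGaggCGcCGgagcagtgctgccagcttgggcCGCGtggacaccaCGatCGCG
Carmil2: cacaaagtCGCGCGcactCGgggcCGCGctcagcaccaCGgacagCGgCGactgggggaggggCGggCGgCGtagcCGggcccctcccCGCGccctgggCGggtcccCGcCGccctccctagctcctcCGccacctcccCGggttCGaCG
Gm28308: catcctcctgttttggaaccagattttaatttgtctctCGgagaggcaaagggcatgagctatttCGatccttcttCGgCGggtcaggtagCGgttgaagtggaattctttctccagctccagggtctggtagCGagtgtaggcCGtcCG
Fmnl1: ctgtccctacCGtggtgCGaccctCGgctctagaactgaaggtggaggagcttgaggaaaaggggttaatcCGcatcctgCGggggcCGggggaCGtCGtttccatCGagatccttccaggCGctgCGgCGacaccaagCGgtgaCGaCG
Gfi1: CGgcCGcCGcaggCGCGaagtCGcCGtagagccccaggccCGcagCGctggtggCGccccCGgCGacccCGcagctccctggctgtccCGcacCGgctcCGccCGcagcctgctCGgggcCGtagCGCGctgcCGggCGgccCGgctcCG
Snx20: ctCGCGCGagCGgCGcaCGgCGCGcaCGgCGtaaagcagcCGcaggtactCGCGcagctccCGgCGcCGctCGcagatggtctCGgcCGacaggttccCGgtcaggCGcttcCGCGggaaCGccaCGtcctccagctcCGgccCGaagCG

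Agap2 encodes an Arf GTPase-activating protein that enhances phosphoinositide 3-kinase signalling. In its window from 127091453 to 127092214 on chromosome 10, the lowest, median and highest Sham libraries were at 13.5, 23.9 and 31.6 %DNAm, and those of Sham-OVA at 43.0, 50.5 and 59.7 %DNAm. In PM the same values were 11.7, 24.7 and 27.7 %DNAm, and in PM-OVA 39.5, 51.4 and 56.3 %DNAm. Every OVA library therefore lay above every unchallenged library in this window. The difference was 28.7 points in the Sham arm and 27.0 points in the PM arm, the latter being the largest gain of all when a gain is taken as the smaller of the differences in the 2 arms. Agap2 also had 8 gaining windows out of 10, more than any gene other than Gm28308. Those between 3.23 and 8.12 kb from its start had unchallenged levels of 14.5 to 40.7 %DNAm, and the window between the gaining ones, at 81.9 %DNAm, differed by 5.16 points in the Sham arm and 4.23 points in the PM arm.

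Carmil2, a regulator of actin capping that is needed for costimulation of T cells, had 1 gaining window (chromosome 8 from 105693829 to 105694357, with 236 coding bases). Its Sham libraries lay between 4.98 and 25.3 %DNAm with a median of 15.4, and its Sham-OVA libraries between 34.2 and 50.4 %DNAm with a median of 40.4. PM libraries ranged from 15.03 to 24.8 %DNAm (median 17.9) and PM-OVA libraries from 36.8 to 51.8 %DNAm (median 45.4). The groups did not overlap in either arm, and the differences were 27.0 and 26.6 points. The Carmil2 stretch printed above is outside annotated exons.

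Fmnl1, a formin that builds actin filaments in leucocytes, gained most in a window of 976 bp with 510 coding bases (chromosome 11 from 103192627 to 103193602). Sham libraries were between 11.98 and 33.3 %DNAm (median 26.1) and Sham-OVA libraries between 40.3 and 58.7 %DNAm (median 54.3). PM libraries were between 21.03 and 32.01 %DNAm (median 22.5) and PM-OVA libraries between 37.6 and 54.5 %DNAm (median 47.3). The OVA and unchallenged libraries did not overlap.

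Gfi1, a zinc finger repressor of blood cell development, gained in an almost wholly coding window of 383 bp (chromosome 5 from 107721362 to 107721744). The Sham and Sham-OVA medians were 14.8 and 42.5 %DNAm, and the PM and PM-OVA medians were 15.7 and 36.05 %DNAm. The groups did not overlap within an arm, but the lowest PM-OVA library (24.2 %DNAm) was just under the highest Sham library (24.4 %DNAm). The 3 gaining windows of Gfi1 were consecutive. The windows closer to the gene start, at 1.23 to 1.65 %DNAm, differed by less than 1 point in both arms.

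Snx20, a sorting nexin that binds the selectin ligand PSGL-1, had a pair of adjoining gaining windows. The stronger (chromosome 8 from 88627554 to 88627913, 360 bp with 274 coding bases) had medians of 15.1 %DNAm in Sham, 41.6 in Sham-OVA, 17.1 in PM and 38.7 in PM-OVA. Its lowest OVA library was at 26.9 %DNAm and its highest unchallenged library at 20.6 %DNAm. Next to these 6 genes, the largest gains, taken 1 window per gene, were in 2700081O15Rik (22.8 points), Eva1b (22.0), Shisa8 (22.0), Rnf220 (21.7), Efcab15 (21.5) and Nfia (21.4 points). Rnf220, a ubiquitin ligase, and Nfia, a transcription factor of glial development, gained within introns, where no exon was annotated. In Rnf220 and Efcab15 the Sham and Sham-OVA libraries overlapped.

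**Figure D1:**
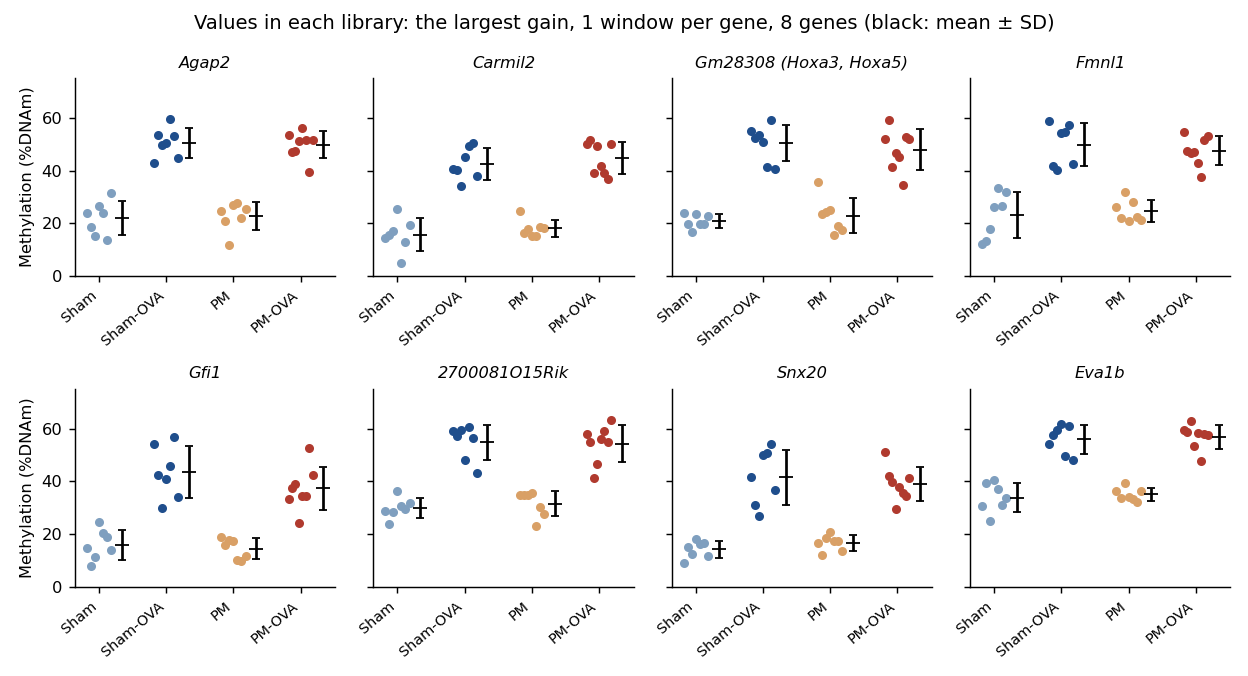
Each point is the methylation of 1 library (%DNAm, vertical axis) in the window with the largest gain of a gene, for the 8 genes with the largest gains and the 4 groups on the horizontal axis, and the black bar is the group mean ± SD. In Agap2 the unchallenged libraries reached 31.6 %DNAm at most and the OVA libraries started at 39.5 %DNAm.

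A stretch of 46.1 kb in the HoxA cluster on chromosome 6 held more gaining windows than any other place. The Hox genes encode homeodomain transcription factors that set position along the body axis, and their clusters are dense in overlapping sense and antisense transcripts. Of 24 complete windows between 52160850 and 52206942, 19 gained in both arms. The table names 17 of them for Gm28308 (ENSMUSG00000101298), a predicted gene that spans the stretch, and the annotation also places Hoxa2, Hoxa3, Hoxa4, Hoxa5, Hoxa6 or the antisense Hoxaas2 and Hoxaas3 there. Their unchallenged levels ranged from 7.12 to 44.2 %DNAm with a median of 25.4. The differences had a median of 18.7 points in the Sham arm (15.9 to 29.6) and 16.9 points in the PM arm (10.95 to 25.04).

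In the window that gained most in the HoxA stretch, over Hoxa3 and Hoxa5 (52201945 to 52203659), the Sham libraries were at 16.6, 19.9 and 23.9 %DNAm (lowest, median, highest) and the Sham-OVA libraries at 40.6, 52.5 and 59.2 %DNAm. The PM libraries were at 15.6, 23.5 and 35.8 %DNAm and the PM-OVA libraries at 34.6, 49.3 and 59.1 %DNAm, so that the PM arm overlapped by a single pair of libraries. Averaged over the 19 windows, each unchallenged library was between 23.4 and 32.7 %DNAm and each OVA library between 38.4 and 51.7 %DNAm, with no overlap. The 5 other windows of the stretch started at 0.654 to 17.8 %DNAm and differed by 0.428 to 14.8 points in the Sham arm and by -0.916 to 9.75 points in the PM arm. On either side of the stretch, the 47 windows within 60 kb had a median difference of -0.0573 points in the Sham arm and -0.0627 points in the PM arm, and a median unchallenged level of 6.89 %DNAm. Of these flanking windows, 3 were losing ones, with differences of -10.7, -10.04 and -11.8 points in the Sham arm and -10.5, -11.5 and -11.7 points in the PM arm. Outside HoxA, a single window overlapping a Hox gene gained, over Hoxb3 and Hoxb4, by 11.5 and 10.99 points.

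Several genes gained in one place and lost in another. Windows that were at least 10 points lower after OVA in both arms, the mirror image of the rule, numbered 599 in 476 genes. Of the genes with a gaining window, 33 also had a losing window (7.86% of the gaining and 6.93% of the losing genes). In 31 of the 33 the gaining windows had the lower unchallenged level, with a median of 42.5 %DNAm against 65.9 %DNAm for the losing windows. In 28 they were the shorter. Over all gaining and losing windows the median levels were 42.7 and 68.7 %DNAm and the median lengths 2656 and 3580 bp. The contrast was therefore not particular to these genes. Since the level enters the rule as the value subtracted, it is a description. The median distance between the nearest gaining and losing windows of a gene was 27.1 kb.

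In Fmnl1, windows centred 2.71 and 6.37 kb from its start, at 65.8 and 70.5 %DNAm, were the losing ones, with differences of -20.97 and -16.4 points in the Sham arm and -20.4 and -16.1 points in the PM arm. Its windows at 22.01 and 27.4 kb, which started at 23.8 and 31.6 %DNAm, were the gaining ones. Spi1 encodes PU.1, the transcription factor that directs myeloid and B cell development. Its window at 32.04 kb, over 525 coding bases, rose from a Sham median of 40.5 to a Sham-OVA median of 54.2 %DNAm and from a PM median of 40.9 to a PM-OVA median of 52.7 %DNAm. Its window at 15.8 kb lost, with differences of -15.8 points in the Sham arm and -16.8 points in the PM arm. PM and PM-OVA libraries overlapped in the gaining Spi1 window.

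Runx1, the transcription factor on which definitive blood formation depends, had 6 gaining and 3 losing windows out of 66. The losing windows were at 0.438, 3.57 and 24.9 kb from the annotated gene start, and the first of them differed by -22.5 points in the Sham arm and -19.3 points in the PM arm. The gaining windows were at 127 to 140 kb and at 219 and 221 kb. The strongest, a wholly exonic window of 1179 bp with 220 coding bases, had medians of 14.3 %DNAm in Sham, 37.4 in Sham-OVA, 15.2 in PM and 36.3 in PM-OVA, without overlap. Over the windows of Runx1 that did not gain, the median difference was 1.28 points in the Sham arm and 0.461 points in the PM arm.

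**Figure D2:**
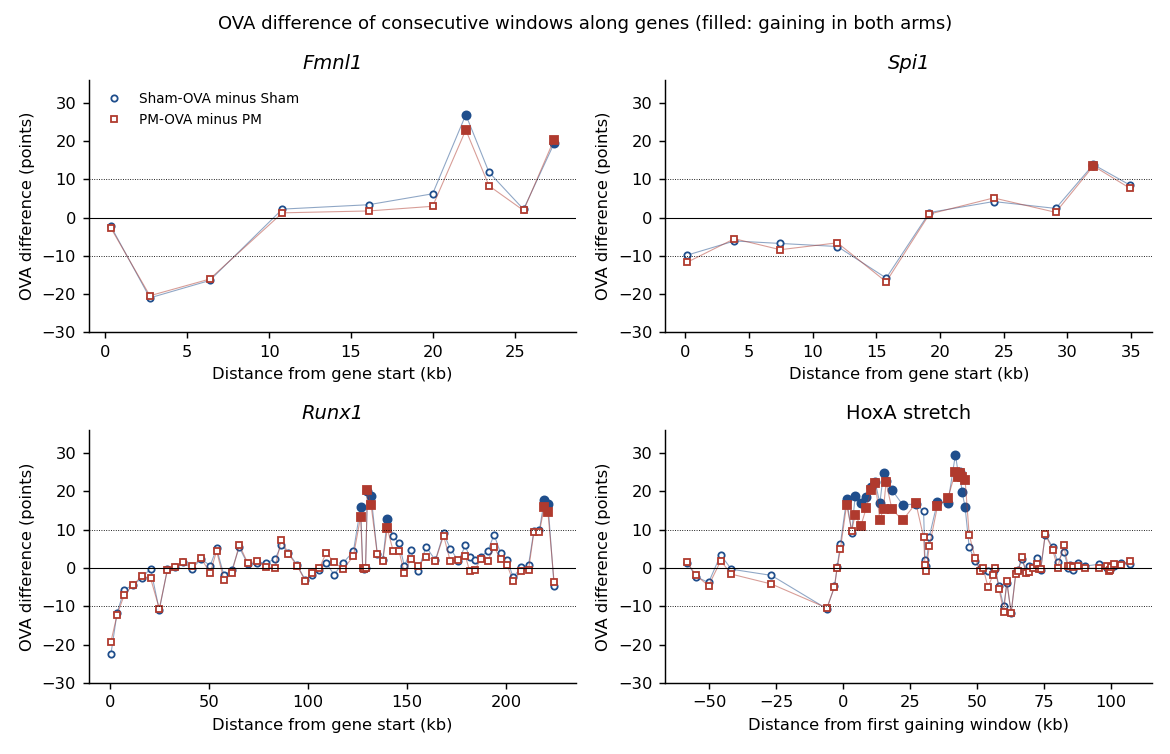
The OVA difference in points (vertical axis) of each complete window in the Sham arm (circles) and the PM arm (squares) is plotted against the distance of its centre in kb from the annotated gene start, or from the first gaining window for the HoxA stretch, with gaining windows filled and dotted lines at 10 and -10 points. Fmnl1, Spi1 and Runx1 held both losing and gaining windows, and in the HoxA panel most windows of the stretch were gaining ones.

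Gene lists and name families were drawn up with earlier results of these data known, so the counts below are descriptions, to be read against the 0.236% of all windows that gained. In the list of 40 genes of endothelial cells, which line the blood vessels, 9 of 467 windows gained (1.93%), in Ets2, Egfl7, Calcrl, Pecam1, Ets1, Gata2, Flt1 and Sox7. Ets1, Ets2, Gata2 and Sox7 are transcription factors, Flt1 and Calcrl are receptors for vascular growth factors and for adrenomedullin, Egfl7 is secreted, and Pecam1 is a junction protein. The Ets2 window on chromosome 16 from 95704181 had Sham libraries between 37.2 and 44.3 %DNAm and Sham-OVA libraries between 56.3 and 66.05 %DNAm, and PM and PM-OVA libraries between 33.2 and 49.6 and between 54.8 and 63.6 %DNAm. The Pecam1 window, which is intronic, went from medians of 48.3 to 61.6 %DNAm in Sham and from 53.2 to 62.5 %DNAm in the PM arm, also without overlap. A losing window was centred just upstream of the Pecam1 start, with differences of -18.04 points in the Sham arm and -15.9 points in the PM arm, and the endothelial list had 2 losing windows in all.

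The whole endothelial list was tested with limma on a log2 ratio scale, with Benjamini-Hochberg adjustment over 259167 windows. At an adjusted p under 0.05, 176 of its 467 windows were higher and 74 lower after OVA in the Sham arm, and 147 were higher and 119 lower in the PM arm. Over all windows 13.3% were higher and 22.3% lower in Sham, and 9.26% higher and 34.8% lower in the PM arm. The median difference of the list was 0.753 points in the Sham arm and 0.334 points in the PM arm, against -0.378 and -0.997 points over all complete autosomal windows. These splits depended on the general level of a library. With each library centred to the same level, all complete autosomal windows divided into 47633 higher and 45997 lower in Sham, in place of 34190 and 55656, and into 56288 higher and 52080 lower in PM, in place of 23969 and 87878. The endothelial list then had 196 higher and 69 lower windows in the Sham arm and 209 and 83 in the PM arm.

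The TGF-beta and BMP pathway, in which ligands act through receptor kinases and Smad proteins, had 15 gaining windows out of 876 (1.71%) in 4 of 57 genes. Smad6 and Smad7 are inhibitory Smads, Smurf2 is the ubiquitin ligase that brings about receptor breakdown, and Ski is a repressor that binds Smads. Smad6 had 6 gaining windows, all in introns, with unchallenged levels of 32.4 to 50.7 %DNAm and differences of 12.9 to 17.2 points in the Sham arm and 11.2 to 14.8 points in the PM arm. Smad7 had 5, of which 4 formed a run of 12183 bp. The strongest Smad7 window (chromosome 18 from 75373319 to 75376185) had medians of 21.5 %DNAm in Sham, 43.7 in Sham-OVA, 23.2 in PM and 43.1 in PM-OVA. Over the pathway 266 windows were higher and 170 lower in Sham (limma adjusted p under 0.05), whereas 207 were higher and 246 lower in the PM arm. As shares these were 30.4% and 19.4% in the Sham arm, against 13.7% and 22.2% of all complete autosomal windows, and 23.6% and 28.1% in the PM arm, against 9.58% and 35.1%. With each library centred the PM split turned to 341 higher and 163 lower.

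In the Notch pathway 3 of 501 windows gained (0.599%), a pair in the receptor Notch1 and 1 in its endothelial ligand Dll4. The stronger Notch1 window went from medians of 41.1 to 54.0 %DNAm in Sham and from 41.2 to 55.1 %DNAm in the PM arm. Limma gave 124 higher (24.8%) and 75 lower (14.97%) windows for the pathway in the Sham arm, where all complete autosomal windows had 13.7% and 22.2%. It gave 90 (17.96%) and 111 (22.2%) in the PM arm, against 9.58% and 35.1% of all. The counts became 155 and 54, and 182 and 60, after centring. In the Wnt pathway 3 of 780 windows gained (0.385%), in the receptors Fzd7 and Fzd8 and the ligand Wnt6. The Fzd7 window, which is wholly coding, rose by 18.2 and 18.6 points. The pathway had 171 higher (21.9%) and 151 lower (19.4%) windows in the Sham arm, against the same 13.7% and 22.2% of all, and 149 (19.1%) and 232 (29.7%) in the PM arm, against 9.58% and 35.1%. These became 230 and 130, and 261 and 155, after centring.

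Of 35 genes of haematopoietic signalling, Runx1 (6 windows), Dock2 and Plcg2 gained, 8 of 776 windows (1.03%), and 30 of the 776 were losing windows, against 599 of all 250325. Dock2 activates Rac in leucocytes and Plcg2 is the phospholipase of B cell receptor signalling. For this list limma gave 288 higher (37.1%) and 181 lower (23.3%) windows in the Sham arm, against 13.7% and 22.2% of all complete autosomal windows. In the PM arm it gave 242 (31.2%) and 213 (27.4%), against 9.58% and 35.1% of all, and the list's counts there became 363 and 160 after centring. The lymphoid list had 4 gaining windows out of 478 (0.837%), 3 in Runx3 and 1 in Pax5, and 11 losing ones. The myeloid list had 3 of 263 (1.14%), in Spi1, Csf2ra and Kit, and 2 losing windows. The lymphoid list had 86 windows higher (17.99%) and 147 lower (30.8%) in the Sham arm and 59 (12.3%) and 184 (38.5%) in the PM arm. The myeloid list had 42 (16.0%) and 73 (27.8%) in the Sham arm and 27 (10.3%) and 97 (36.9%) in the PM arm. The shares over all complete autosomal windows are those given for the preceding list. After centring, the PM arm had 112 higher and 134 lower lymphoid windows and 59 and 75 myeloid ones.

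In 143 windows of 22 of 25 marker genes of haematopoietic cells, the library means were between 70.1 and 71.6 %DNAm in Sham and PM and between 67.8 and 69.4 %DNAm in Sham-OVA and PM-OVA. Among them 1 window gained, in Spi1, and 16 lost. The 39 windows of 10 of 11 lung identity genes had library means of 49.5 to 51.8 %DNAm without OVA and 50.3 to 52.9 %DNAm with it, and none of them gained or lost. In 100 windows of 5 of 6 marker genes of other tissues, of which none gained or lost, the group means were 83.9 %DNAm in Sham, 83.2 in Sham-OVA, 84.3 in PM and 82.8 in PM-OVA. The median differences of the haematopoietic windows were -1.10 points in the Sham arm and -1.27 points in the PM arm, and those of the other tissues -0.73 and -1.52 points. These are levels of methylation and not of RNA, and their part in the gains was not tested.

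Runx3, a transcription factor of cytotoxic T cells, had its strongest gain in an intron (chromosome 4 from 135166521 to 135169008), from medians of 40.1 to 58.9 %DNAm in Sham and of 43.0 to 58.7 %DNAm in the PM arm. Pax5, which keeps B cell identity, held the gaining window with the lowest start. This window of 367 bp (chromosome 4 from 44664105 to 44664471, with 310 bases within 2000 bp of an annotated gene start) was between 0.794 and 3.83 %DNAm in all unchallenged libraries. It was between 7.76 and 18.5 %DNAm in Sham-OVA and between 9.21 and 24.0 %DNAm in PM-OVA. The highest start was in Zfp46, a zinc finger gene, at medians of 74.4 %DNAm in Sham and 71.8 in PM, which rose to 84.2 and 82.7 %DNAm.

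Of the forkhead family, 5 of 597 windows gained (0.838%), in Foxh1, Foxn3, Foxp1 and the antisense transcript Foxd2os. Among adhesion G protein-coupled receptors 5 of 631 gained (0.792%), in Adgrl2, Adgrf5 and Adgre5. Since a window counts CpGs over both strands, a sense gene and its antisense partner share 1 value where they overlap.

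Other families held few or none. None of the 311 windows of 38 genes of the alveolar and airway epithelium gained. By limma (adjusted p under 0.05) 75 of them were higher (24.1%) and 51 lower (16.4%) in the Sham arm, against 13.7% and 22.2% of all. In the PM arm 45 were higher (14.5%) and 75 lower (24.1%), against 9.58% and 35.1% of all. None gained among 1005 collagen, 2531 olfactory and vomeronasal receptor, 447 protocadherin, 195 chemokine and receptor, 935 fibroblast growth factor and receptor, 992 calcium channel, 1713 kinesin and myosin, or 333 microRNA-named windows. The 4317 solute carrier windows held 1, in Slc6a16, and the 542 windows of mesenchymal and smooth muscle genes 1, in the Hedgehog inhibitor Hhip. At a share of 0.236%, lists as short as that of the microRNA windows correspond to fewer than 1 gaining window, so their zeros carry little information.

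Of the 420 genes, 386 were protein-coding, and most others were long RNAs (12 lincRNA, 11 processed transcripts and 8 antisense). Most genes, 334, had a single gaining window and 86 had at least 2, of which 36 had at least 3 and 19 at least 4. Next to those above came Lncppara (6 windows), a long RNA, the 6 windows named for Galnt2l on chromosome 8, and Dpysl2, Epas1 and Aopep with 5 each. Epas1, the hypoxia-inducible factor 2 alpha of endothelium, gained by 12.7 to 16.6 points in the Sham arm and 10.2 to 13.5 points in the PM arm. The windows named Galnt2l spread from 120493626 to 122642287, among 1420 windows of that name, and the annotation placed other genes such as Piezo1 and Zfpm1 in them, so they are not a cluster in 1 gene. Of the chromosomes, 8 had the highest share of gaining windows (0.369% of 14364) and 13 the lowest (0.106% of 11317).

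Gaining windows tended to lie side by side. Counting windows at most 1000 bp apart as neighbours, 168 of 590 (28.5%) adjoined another gaining window. They formed 66 runs of at least 2 and 17 runs of at least 3 windows, the longest being a run of 11 in HoxA, over 25919 bp, followed by 7 in HoxA and 5 each in Agap2 and Lncppara. Windows in runs gained more than single ones, with medians of 15.8 points in the Sham arm and 13.9 points in the PM arm against 13.1 and 11.6 points, and started lower, at a median of 38.1 against 44.4 %DNAm. Neighbours that did not meet the rule also tended to be higher. Those 926 windows had a median difference of 3.57 points in the Sham arm and 2.69 points in the PM arm. Of them, 76.0% were higher in both arms, against 27.4% of all windows. These shares were taken without centring the libraries and were not matched for unchallenged level.

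The unchallenged level, here the mean of Sham and PM, had a median of 42.7 %DNAm in the gaining windows (quartiles 32.4 and 51.4), against 77.1 %DNAm over all complete autosomal windows and 68.7 %DNAm in the losing windows. The level enters the rule as the value subtracted, so this is a description. Of windows that started at 40 to under 50 %DNAm, 2.95% gained (176 of 5960), the highest share of any level. The share was 2.70% at 30 to under 40 %DNAm, 1.99% at 20 to under 30, 1.07% at 10 to under 20 and 1.20% at 50 to under 60. It was 0.107% at 60 to under 70 %DNAm, with 1 window above that and none from 80 %DNAm. Below 10 %DNAm, 4 of 17830 windows gained, Pax5 among them.

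**Figure D3:**
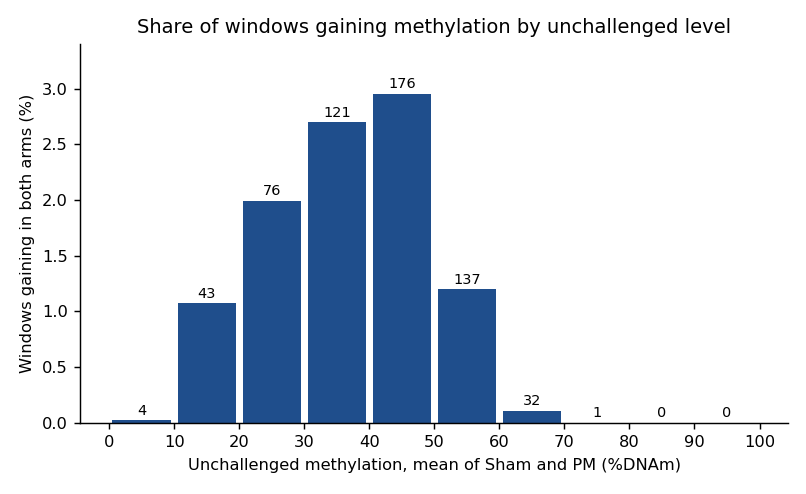
Bars give the percentage of complete autosomal windows that gained at least 10 points in both arms (vertical axis) by their unchallenged level in steps of 10 %DNAm (horizontal axis), with the number of gaining windows above each bar. The share was highest between 40 and 50 %DNAm (2.95%) and none of the windows above 80 %DNAm gained.

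After OVA the gaining windows reached a median of 56.2 %DNAm (range 15.003 to 83.5), and 213 of 590 reached 60 %DNAm or more. Among the gaining windows, those with a low start had the larger differences. The start is the value the rule subtracts, so this is a description. Those under 20 %DNAm (47 windows) had medians of 16.9 points in the Sham arm and 15.3 points in the PM arm, those from 40 to under 60 (313 windows) 12.9 and 11.5 points, and those from 60 (33 windows) 11.2 and 10.9 points.

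The gaining windows were short and CpG-dense, features that the rule did not use. Since nearly all windows hold the same 50 CpGs, a short window is a dense one. The median length was 2656 bp against 4714 bp over all complete autosomal windows and 3534 bp over those that started at 20 to under 60 %DNAm, with 1.89, 1.07 and 1.42 CpGs per 100 bp. GC content was 51.5%, 44.5% and 46.8%. Under 1000 bp were 69 gaining windows (11.7%), 5.95% of all windows and 1.21% of those that started at 20 to under 60 %DNAm. Of the 69 short ones, 67 overlapped an exon, but the exon share of all windows under 1000 bp was not worked out. At least 15 points in both arms were gained by 30 of the 69 (43.5%). Of the 319 gaining windows of the longest class (median 3413 bp), 30 did so (9.40%). The short windows also had the wider spread, with a median pooled SD of 5.16 points against 3.33, and in fewer of them did all OVA libraries lie above all unchallenged ones (44.9% against 63.0%).

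An exon was overlapped by 66.8% of gaining windows, against 64.2% of all and 71.1% of those that started at 20 to under 60 %DNAm. Coding sequence was overlapped by 48.6% of gaining windows and by 41.3% of all, and 49 windows (8.31%) lay wholly in exons, against 2.18% of all. Within 2000 bp upstream of a gene start lay 114 gaining windows (19.3%), against 22.8% of all windows and 40.1% of those that started at 20 to under 60 %DNAm. A further 186 (31.5%) were intronic with no exon or promoter base, against 34.4% of all and 26.3% of those that started at 20 to under 60 %DNAm. At least 2 genes were overlapped by 19.3% of the gaining windows, so a gene name can hide a neighbour. In the central 500 bp, the letters TGTGGTT (RUNX) occurred on either strand in 7.67% of 574 gaining windows, against 11.6% of all and 16.2% of losing windows. For the AP-1 motif, TGANTCA, these shares were 11.1%, 13.8% and 19.1%. For the GATA motif, AGATAAG, they were 7.84%, 6.63% and 5.85%. A match of letters is a description and not a site.

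Across the arms, the median difference over the 590 windows was 13.6 points in the Sham arm and 12.1 points in the PM arm, and 450 windows differed more in the Sham arm and 140 more in PM. The latter number was 213 without PM replicate 1, 96 without Sham-OVA replicate 7 and 208 with each library centred. Over all tested windows, PM arm minus Sham arm had a median of -0.586 points, and of -0.0141 points with each library centred. At least 15 points in both arms were gained by 105 windows (74 genes) and at least 20 by 25 windows (17 genes), while 191 had a gain under 11 points. Of 1221 windows that were at least 10 points higher in Sham-OVA, 48.3% met the rule, and of 683 in PM-OVA 86.4% did. The 631 windows that met the minimum in Sham alone had a median of 8.27 points in the PM arm, and 602 of them were 5 to 10 points higher there. The minimum therefore cut through a continuous range. Just inside were Tmem184b, Gja4 and 3110082I17Rik, at 10.002, 10.004 and 10.005 points in the PM arm, and just outside another Klf7 window, Fam129b and Ece1, at 9.99, 9.98 and 9.98 points.

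**Figure D4:**
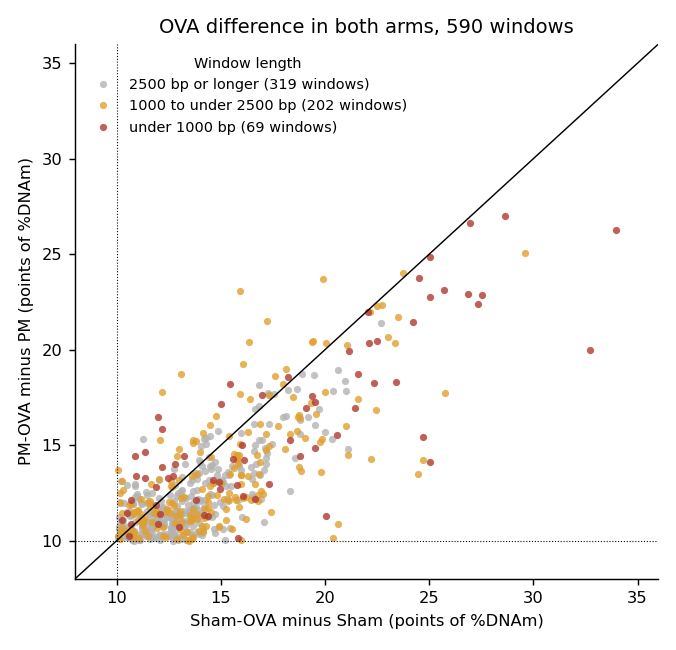
Each point is 1 of the 590 gaining windows, with the difference Sham-OVA minus Sham on the horizontal and PM-OVA minus PM on the vertical axis, both in points of %DNAm, and colour for window length. The dotted lines mark the minimum of 10 points that chose the windows and the black line marks equality, below which lie the 450 windows with the larger difference in Sham.

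The question of whether maternal PM2.5 exposure altered methylation was addressed by contrasts between the PM and Sham groups. These are built from the same 4 group means as the rule, which left out the 631 windows that met the minimum in the Sham arm alone and the 93 that met it in the PM arm alone. The counts over the gaining windows are therefore a description and do not test an effect of PM2.5. For PM against Sham, 0 of 590 windows had a limma adjusted p under 0.05 (0% of all 259167 tested windows), and 15 had an unadjusted p under 0.05 (2.54%, against 5.79% of all). For PM-OVA against Sham-OVA the numbers were again 0 (0% of all) and 15 (2.54%, against 5.96% of all). For the interaction they were 0 (0% of all) and 14 (2.37%, against 7.4% of all).

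Over the gaining windows, PM minus Sham had a median of 0.821 points with 416 of 590 above 0, and PM-OVA minus Sham-OVA a median of -0.525 points with 217 above 0. Over all windows the medians were 0.275 and -0.303 points. Single libraries decided these small values. For PM minus Sham the median was 0.198 points with 331 above 0 without PM replicate 1, 0.410 without PM replicate 4, 0.525 without Sham replicate 6 and 1.34 without PM replicate 5. For PM-OVA minus Sham-OVA the sign turned without Sham-OVA replicate 6, to 0.0329 points with 299 above 0, and the median ranged down to -1.28 points without Sham-OVA replicate 7. With each library centred the medians were 0.525 and -0.237 points. In 90% of the gaining windows the difference between PM and Sham was between -1.96 and 3.32 points, and between PM-OVA and Sham-OVA it was between -3.79 and 1.95 points. The window with the smallest p for PM against Sham and for the interaction was that of Gm38708 (chromosome 6 from 88190625 to 88192979). Its group means were 27.9% ± 1.82 (SD, n = 7) for Sham, 52.6% ± 3.30 (SD, n = 7) for Sham-OVA, 33.9% ± 5.19 (SD, n = 7) for PM and 48.2% ± 4.85 (SD, n = 8) for PM-OVA. The smallest p after OVA belonged to a wholly coding window of 346 bp named Galnt2l, over Zfpm1, at 65.2% ± 7.44 (SD, n = 7) in Sham-OVA and 54.3% ± 8.59 (SD, n = 8) in PM-OVA.

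The pooled SD within the 4 groups had a median of 3.68 points, against 2.74 points in the losing windows, 1.47 points over all windows and 1.70 points over windows that started at 20 to under 60 %DNAm. Within groups it was 3.00 points in Sham, 4.02 in Sham-OVA, 3.63 in PM and 3.56 in PM-OVA. The OVA difference was a median of 3.87 pooled SDs in the Sham arm and 3.51 in the PM arm. The narrowest spread was in a window named for Aopep, with a pooled SD of 1.79 points, where Sham and PM libraries lay between 51.6 and 57.9 %DNAm and OVA libraries between 62.3 and 67.9 %DNAm.

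The widest was in an intronic window of Snd1 with a pooled SD of 18.4 points, where single libraries ranged from 2.85 to 53.6 %DNAm in Sham and from 2.93 to 53.1 %DNAm in PM-OVA. Its difference in means was 20.6 points in the Sham arm and 10.8 points in the PM arm, the latter smaller than the pooled SD. Kcnh6, a potassium channel gene, was alike, with a pooled SD of 17.0 points and libraries from 22.9 to 69.8 %DNAm in Sham. These were the 2 gaining windows with a pooled SD over 10 points.

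Much of the spread was shared, in that a library tended to be high or low at many gaining windows together. The mean over the 590 windows ranged from 39.2 to 43.7 %DNAm among Sham libraries, from 51.1 to 59.2 among Sham-OVA, from 38.7 to 45.5 among PM and from 52.3 to 57.0 among PM-OVA libraries. Over all complete autosomal windows the libraries ranged only from 67.8 to 70.1 %DNAm. The library mean accounted for 17.7% of the variance within Sham, 37.9% within Sham-OVA, 32.6% within PM and 24.3% within PM-OVA, against 5.03 to 11.1% over all windows. Sham-OVA replicate 7 was the lowest of its group in 55.4% of the gaining windows and Sham-OVA replicate 6 the highest in 41.5%. PM replicate 1 was the highest of its group in 53.4% and PM replicate 5 the lowest in 44.6%.

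**Figure D5:**
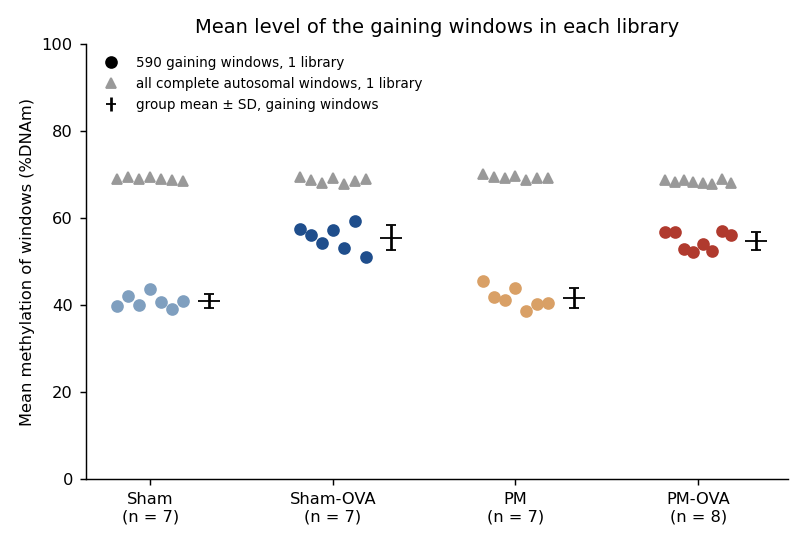
Circles give the mean over the 590 gaining windows of each library and grey triangles its mean over all complete autosomal windows, both in %DNAm on the vertical axis, by group on the horizontal axis, with the group mean ± SD of the gaining windows in black. The unchallenged libraries lay between 38.7 and 45.5 %DNAm and the OVA libraries between 51.1 and 59.2 %DNAm, while all windows together stayed between 67.8 and 70.1 %DNAm.

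Each library was also left out in turn, with the rule applied to the other 28. The rule then chose 513 to 698 windows. The mean over them in the left-out library differed from that of the opposite group of its arm by 9.88 to 18.4 points for Sham-OVA, 10.03 to 15.1 points for PM-OVA, -16.3 to -11.6 points for Sham and -16.0 to -8.50 points for PM libraries. The values of the opposite group and of the rest of the library's own group chose those windows, so these differences are a description. The share of windows at which a left-out library was nearer to its own group than to the other ranged from 69.5% (PM replicate 1) and 73.9% (Sham-OVA replicate 7) to 100% (Sham-OVA replicate 6). In the full set, all OVA libraries of an arm lay above all unchallenged libraries in 496 windows in Sham (84.1%, against 3.25% of all windows) and in 448 in the PM arm (75.9%, against 1.71%). Over both arms at once this held for 329 (55.8%, against 0.612%). These counts rest on the contrasts of the rule and are given as a description. By limma, 588 of the 590 passed an adjusted p of 0.05 in the Sham arm and 587 in the PM arm, against 13.3% and 9.26% of all windows, which is again a description.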

How the data were processed

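Whole-genome methylation sequencing was performed on 29 lung libraries. Per the labels and the methods of the study, the authors trimmed reads with Trim Galore, aligned and called them with DRAGEN against GRCm38, and in SeqMonk computed the percentage of methylated calls in each gene-overlapping window of 100 CpG cytosines, requiring 10 informative CpGs. The deposited percentages were used as they are, with no column left out. No read counts come with them, so the count test of the study could not be run.

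Here, groups were taken from the sample labels. Windows were compared with limma 3.58.1 (R 4.3.3) on log2((percent + 1)/(101 - percent)), with 4 group means in 1 fit and Benjamini-Hochberg adjustment over 259167 windows with at least 3 values per group. The other 1519 windows were not tested. Python 3.11.15, numpy 2.4.6 and pandas 2.3.3 were used for the rest, and the fit was tested on simulated data. Exons and promoters (2000 bp upstream of a start) came from GENCODE release 21 for mouse, and sequences from the RefSeq copy of GRCm38. The labels do not say which mice shared a litter, so p-values measure only the spread between these samples.

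The members and the gene lists were chosen with earlier results of these data known. Genes were named by rule: the 12 largest gains (the smaller difference of the arms), 1 window per gene, the 6 genes with most gaining windows, up to 4 genes per list, the extremes of level, spread and p, and the windows next to the minimum. Genes with both directions and further members of lists were named after their values were seen. Other minima, group medians, centred libraries, completeness, chromosome X, a stricter p, the replicate number as a block and leaving out each library were tried as alternatives. One gene family is not reported here.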

Additional observations from a re-analysis of the deposited data

Results flagged for a closer look

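Among 364 groups of libraries at the named windows, 19 (5.22%) held a library far from the rest of its group by Dixon's criterion, which flags about 1 group in 20 by chance. In the PM group, PM replicate 1 was high in Carmil2 (24.8 %DNAm, the others 15.03 to 18.7) and in Smad7 (35.6, the others 19.8 to 24.9), PM replicate 3 was low in Agap2 (11.7, the others 20.96 to 27.7), and PM replicate 6 was high in Snd1 (49.1, the others 3.65 to 22.8). In the Sham group, replicate 4 was high in Efcab15 (35.7, the others 13.5 to 18.3), replicate 5 in Hoxa2 (18.2, the others 8.31 to 11.7) and in Snd1 (53.6, the others 2.85 to 22.9), and replicate 7 in Spi1 (48 %DNAm, the others 38.3 to 41.99), while replicate 3 was low in Foxd2os (40.7, the others 44.96 to 47.7).

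In the Sham-OVA group, replicate 7 was low in Fzd7 (24.3 %DNAm, the others 38.2 to 44.7) and in Foxp1 (61.5, the others 65.9 to 69.2), replicate 6 was high in Ankrd33b (68.5, the others 51.2 to 57.5) and replicate 1 in Epha2 (57.6, the others 46.7 to 51.3). In the PM-OVA group, replicate 2 was high in Sema3f (63.1, the others 50.01 to 55.8), in the Galnt2l window over Piezo1 (53.5, the others 44.01 to 48.5) and in Epha2 (59.4, the others 45.2 to 51.1). PM-OVA replicate 1 was high in Adam19 (50.9, the others 40.7 to 44.9) and in Nr4a3 (77.2, the others 66.4 to 71.5), and PM-OVA replicate 8 in the Gm28308 window of 417 bp (34.9, the others 17.3 to 21.4).

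Outside the windows compared, Sham replicate 1 had a value in 1224 of 1230 windows of the Y chromosome, against 29 to 46 in the other libraries. Its label as female is therefore in doubt.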

How the results depend on the processing

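The number of gaining windows depends on the minimum difference. At 5 points there were 4774 windows in 2586 genes, 32.8% of them next to another, with a median unchallenged level of 57.0 %DNAm and median differences of 8.00 (Sham) and 6.87 points (PM). At 15 points there were 105 windows in 74 genes, with 39.0%, 29.7 %DNAm, 19.4 and 17.7 points. With each library centred the level was 45.0 %DNAm (828 windows). Group medians gave 618 windows, at least 3 values in every group 591, chromosome X included 590, and an adjusted p under 0.05 in both arms 587. At an adjusted p under 1e-06, limma called 257 members in Sham and 203 in PM, all of them higher. Over all 259167 windows it called 822 higher and 2121 lower in Sham, and 449 higher and 5044 lower in PM. In either direction these were 1.14% and 2.12% of all windows.

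Leaving out each library in turn gave 513 (without PM replicate 5) to 698 windows (without PM replicate 1) and 371 to 489 genes. Of the windows, 27.0 to 30.2% were next to another, and levels were 42.2 to 43.6 %DNAm. Differences were 13.2 to 14.2 points in Sham and 11.99 to 12.3 points in PM. Members called for OVA numbered 588 to 589 in Sham and 586 to 588 in PM. Over all windows, calls for OVA in either direction made up 30.97 to 36.98% in Sham and 40.8 to 44.4% in PM. In each PM contrast 0 to 0 members were called. Of 5580 differences recomputed at named windows, 5579 stayed within the spread between replicates and none changed sign. The exception was the Ski window from 155172824, at 23.8 points in Sham with group medians. Where the spread is wide, staying within it allows large moves. With group medians the Kcnh6 difference in the Sham arm was 5.30 points, the smallest at the named windows. The Snd1 medians were 5.35 %DNAm in Sham and 42.3 %DNAm in Sham-OVA.

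With the replicate number as a block, limma called 0 members for PM without OVA, 0 for PM with OVA and 0 for the interaction. At an unadjusted p under 0.05 there were 17, 22 and 20 (6.28%, 5.92% and 7.44% of all windows). For OVA limma called 588 members in the Sham arm and 587 in the PM arm, against 34909 and 23067 higher windows of 258503. Calls in either direction made up 36.2% and 41.9% of all. Same-numbered libraries of 2 groups correlated at -0.070 to 0.130, with 3 of 42 pairs over 0.1 and 22 of 84 best matched to their own number. Since most pairs were at or under 0.1, the numbers, taken from the sample titles, were not used to pair the libraries. Names of some Sham-OVA and PM-OVA libraries carry other numbers than their titles, and those were not tried. The block and the correlations therefore cover title order only and cannot show whether libraries were paired. The depth behind each percentage is unknown.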
